A study of Drosophila melanogaster with 2 samples.

Results

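Of the 2133 regions that the authors kept in a ChIP-seq experiment on the Drosophila NF-κB protein Rel, 395 (18.5%) had their summit in an intron at a moderate distance from a transcription start site. These 395 near intronic summits were chosen by the authors' signal rank and by position. The 200 highest-ranked regions were set aside, and a summit was kept if it lay inside a protein-coding gene, in no annotated exon, and 501 to 3000 bp from the nearest start site of a protein-coding gene. Of the 1933 regions after rank 200, 793 lay within 500 bp of a start site, 306 outside protein-coding genes, 58 in an exon and 381 in introns more than 3000 bp from any start site. The last set, called far intronic here, is the main point of comparison. A further 43 of the first 200 regions met the same position rule and are not members.

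The chromatin came from whole wandering larvae, with both sexes pooled, of a transgenic line whose Rel protein has GFP joined to its C terminus. It was precipitated with an antibody to GFP in 2 biological replicates, numbered 2 and 3, of 1 group. The labels name no infection, no other genotype and no second condition, so nothing here compares conditions. Only tagged protein is seen, and a whole larva mixes all tissues, so that binding in few cells and weak binding in many cannot be told apart. A control alignment entered the peak calling and was not analysed here.

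Rel (Relish) is the NF-κB factor of the Imd pathway, the branch of fly immunity that answers mainly to Gram-negative bacteria. Cleavage of Rel releases an N-terminal DNA-binding part that enters the nucleus and switches on antimicrobial peptide genes through kB sites in their promoters, while the C-terminal part stays in the cytoplasm. Because the tag is at the C terminus, the GFP antibody would not be expected to capture the released N-terminal part directly. Which form of Rel the regions reflect was not tested. First introns of fly genes, above all the long ones of developmental regulators, are known to hold many enhancers, and the GAGA factor, which binds GA repeats, is known at promoters and enhancers of such genes.

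The sequences of 5 members are shown for their rank or for the repeats described further on. These windows reach 100 bp to either side of the summit on dm6, given on the plus strand. Capitals mark GAGAGAG or CACACACA on either strand, so that CTCTCTC and TGTGTGTG are also capitalised. The first 3 are the 3 highest-ranked members. The others are high-ranked members with GAGAGAG, taken from windows free of exon bases on chromosomes 2L, 3L, 3R and X. The window at PDZ-GEF is the highest-ranked of such windows with CACACACA, and the one at Tlk holds both strings.
PDZ-GEF, chr2L:6324463-6324663: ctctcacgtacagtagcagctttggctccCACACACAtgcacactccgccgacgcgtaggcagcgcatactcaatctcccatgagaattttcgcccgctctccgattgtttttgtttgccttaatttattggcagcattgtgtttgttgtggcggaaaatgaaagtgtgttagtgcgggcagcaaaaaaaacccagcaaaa
jigr1, chr3R:25640555-25640755: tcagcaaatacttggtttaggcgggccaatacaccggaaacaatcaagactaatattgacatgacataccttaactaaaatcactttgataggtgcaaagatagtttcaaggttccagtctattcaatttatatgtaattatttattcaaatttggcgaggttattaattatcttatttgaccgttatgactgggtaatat
rols, chr3L:12053817-12054017: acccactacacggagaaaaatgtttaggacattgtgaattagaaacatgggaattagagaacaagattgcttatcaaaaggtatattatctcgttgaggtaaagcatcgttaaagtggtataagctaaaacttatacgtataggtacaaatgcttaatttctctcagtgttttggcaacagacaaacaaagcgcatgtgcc
trx, chr3R:14283837-14284037: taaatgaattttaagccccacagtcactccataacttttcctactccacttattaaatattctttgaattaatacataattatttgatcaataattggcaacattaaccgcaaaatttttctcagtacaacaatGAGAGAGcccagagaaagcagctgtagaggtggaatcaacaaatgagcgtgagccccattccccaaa
Tlk, chrX:3778116-3778316: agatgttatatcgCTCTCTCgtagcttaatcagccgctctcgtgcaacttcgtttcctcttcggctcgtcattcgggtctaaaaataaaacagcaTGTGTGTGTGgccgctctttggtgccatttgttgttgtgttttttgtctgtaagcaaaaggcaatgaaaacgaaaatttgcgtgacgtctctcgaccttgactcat

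The highest-ranked members lay in the first introns of genes of varied function. PDZ-GEF, an exchange factor for the small GTPase Rap1, held the highest-ranked member, at rank 206 with a signal of 185, 796 bp downstream of its own start site. The signal is the peak caller's value relative to a control whose kind the labels do not state, on the pooled reads of both replicates, and it ranks regions within 1 list only. The PDZ-GEF region ranked 120 in replicate 2 and 212 in replicate 3. The member in jigr1 ranked 213 in the pooled list, 239 in replicate 2 and 268 in replicate 3, and the one in rols, an adaptor of myoblast fusion, ranked 215, 254 and 220 in that order of lists. All of these lay in the first intron of the gene, downstream of its start site.

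The member in wde, a cofactor of the H3K9 methyltransferase Eggless, was at pooled rank 227, with rank 554 in replicate 2 and 123 in replicate 3. Ssdp, a partner of LIM-domain transcription complexes, held a member at pooled rank 228 (204 in replicate 2 and 328 in replicate 3). In simj, a subunit of the NuRD remodelling complex, it was at 231 (264 and 240 in replicates 2 and 3), and in CtBP, a transcriptional corepressor, at 267 (417 and 230). Egfr, the EGF receptor, held one at 240 (164 and 402), 1804 bp downstream of its start site. Other host genes of the 15 highest-ranked members were CG8468, ush, CG9135, drongo, pAbp (the poly(A)-binding protein) and CG43658, with pooled ranks of 233 to 286. Of the 15 members, the one in pAbp lay in intron 2 and the others in a first intron.

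The member in ush, a cofactor of GATA factors in blood cell development, has replicate ranks far above its pooled one. Its pooled rank was 235, yet it overlapped regions ranked 2 in replicate 2 and 10 in replicate 3. Its summit lies 211 bp from that of the region ranked 2 in the pooled list, and the replicate ranks are those of the stronger neighbour. In all, 22 members (5.57%) overlapped a higher-ranked region of the IDR list, with summits 199 to 320 bp apart (median 213), against 16 far intronic summits (4.20%). Of these 22, 4 overlapped one of the first 200 ranks and 17 a higher-ranked member. Such pairs often share 1 replicate region and are not separate observations of it.

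Members of lower pooled rank were found less often among the top regions of both replicates. Of the 395 members, 322 (81.5%) overlapped one of the top 2133 regions of replicate 2 by at least 1 bp, and 287 (72.7%) one of replicate 3. Both replicates had the region in 225 cases (57.0%, exact 95% binomial interval 51.9 to 61.9), replicate 2 alone in 97, replicate 3 alone in 62 and neither in 11. Far intronic summits were in both in 209 of 381 cases (54.9%), and all regions after rank 200 in 1080 of 1933 (55.9%), so the members do not stand apart from these by more than the interval. Intervals in this text cover counting error only, and neighbouring summits are not independent. The members were chosen by a rank on the pooled reads of the same 2 replicates, which makes agreement with each of them a description and not a test.

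Between pooled ranks 201 and 600, 72 of 75 members (96.0%) were in the top 2133 of both replicates. The count was 77 of 92 (83.7%) for ranks 601 to 1000, 41 of 75 (54.7%) for 1001 to 1400, 27 of 91 (29.7%) for 1401 to 1800 and 8 of 62 (12.9%) for 1801 to 2133. Near the end of the list, most members were among the top 2133 regions of at most 1 replicate. With a longer cut of 30000 regions per replicate, 393 of the 395 members overlapped a region in both. Among these 393, the summits of the 2 replicates were a median of 39 bp apart (quartiles 16 and 82 bp). Spearman's rho between the replicate ranks was 0.27, a value that the shared pooled selection restricts.

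**Figure D1:**
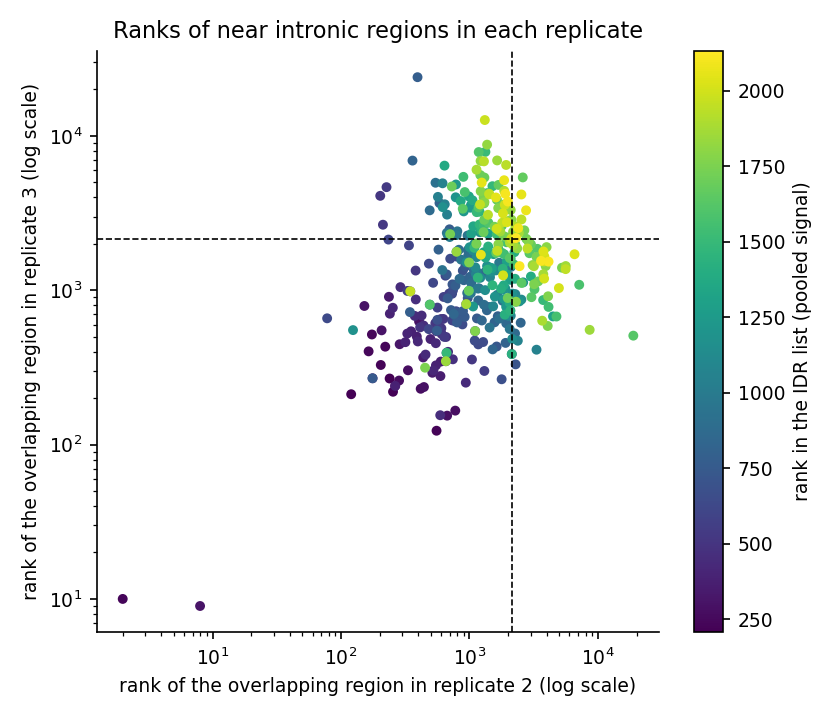
Each point is one of the 393 near intronic regions found in both relaxed lists, placed by the rank of the overlapping region in replicate 2 (x axis) and replicate 3 (y axis, both log scales) and coloured by its rank in the pooled IDR list. Dashed lines mark rank 2133, and 225 members lie below both; the isolated points at the lower left, at ranks 2 and 10 or 8 and 9, are members in ush and CG32772 that overlap a stronger neighbouring region.

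The signal of the members ran from 72.5 to 185, with a median of 96.0, and the authors' −log10 q from 2.08 to 3.00, with a median of 2.43. These values chose the members and are given as a description. Just inside the limits lay a summit in loco 501 bp from its start site (rank 1607), one in chn 2996 bp away (rank 833) and the last region of the list, in Gnpat (rank 2133, signal 72.5). Just outside lay summits 500 bp from the start sites of Atpalpha (rank 1420) and His3.3B (rank 1426), one 3039 bp away in beat-Ib (rank 585), and one in glec at rank 194 (signal 188).

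Intronic summits thinned out with distance from a start site without a step at 3000 bp. The sequence that meets the position rule amounts to 14.5 Mb, or 10.8% of the chromosomes 2L, 2R, 3L, 3R, 4 and X, and it held 27.2 members per Mb (exact 95% Poisson interval 24.6 to 30.0). The 34.0 Mb of intron beyond 3000 bp held 11.2 summits per Mb (10.1 to 12.4). Per Mb of eligible sequence, there were 38.4 summits between 500 and 750 bp, 28.1 between 1000 and 1500 bp and 19.0 (13.7 to 25.8) between 2500 and 3000 bp. The next class, 3000 to 4000 bp, had 19.96 (15.6 to 25.1), and 12000 to 20000 bp had 11.1. Downstream of the start site the density was 42.3 per Mb at 500 to 750 bp and 17.5 at 2500 to 3000 bp, and upstream, where the summit lies in the intron of an overlapping transcript or gene, it was 31.4 and 22.5. The 2 sides overlap in their intervals in each distance class.

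**Figure D2:**
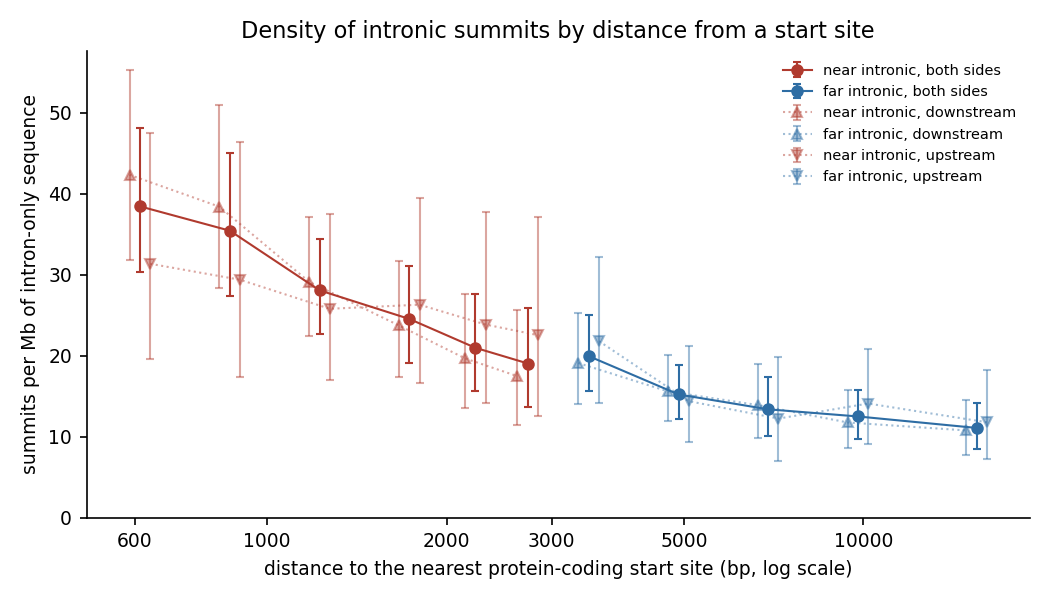
Summits per Mb of intron-only sequence (y axis) against the distance to the nearest protein-coding start site in bp (x axis, log scale), with exact 95% Poisson intervals, for near intronic summits (red) and far intronic ones (blue), on both sides of the start site together (circles) and on each side (triangles). The density is 38.4 per Mb in the class nearest the start site and 11.1 in the farthest class.

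The chromosome arms held 22.9 (2L) to 31.5 (2R) members per Mb of eligible sequence, with overlapping intervals. The X chromosome had 79 members, or 27.2 per Mb (21.6 to 33.9), against 27.5 per Mb (24.6 to 30.7) on the major autosomal arms. Chromosome 4 had 0 members in 0.128 Mb, which allows up to 28.7 per Mb by the Poisson interval.

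First introns held most members. By the lowest intron number over annotated protein-coding transcripts, 330 of the 395 summits (83.5%, 79.5 to 87.1) lay in a first intron, 44 in intron 2, 10 in intron 3 and 11 in intron 4 or later. Of all positions that meet the rule, 63.1% are in a first intron. Far intronic summits were in a first intron in 219 of 381 cases (57.5%, 52.3 to 62.5), against 35.0% of the far positions. The shares also differed within classes of distance. Among members 501 to 1000 bp from a start site, 125 of 142 (88.0%, 81.5 to 92.9) were in a first intron against 71.4% of positions, and beyond 1500 bp 130 of 161 (80.7%, 73.8 to 86.5) were, against 57.9%. Expressed as density, first introns held 36.0 members per Mb (32.2 to 40.1) and the other introns 12.2 (9.38 to 15.5).

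The nearest start site was one of the host gene's own for 345 members (87.3%, 83.7 to 90.5), against 78.4% of eligible positions. For the other 50 it belonged to a neighbouring or nested gene, as at ush, where it is that of cbt. The summit was downstream of the nearest start site in 272 cases (68.9%, 64.0 to 73.4), close to the 67.9% of all eligible positions. That nearest start site had an IDR summit of its own within 500 bp in 74 cases (18.7%, 15.01 to 22.9), against 8.61% of eligible positions and 6.41% of all 19253 start sites (1235 of them). Far intronic summits had such a partner more often in number, 90 of 381 (23.6%, 19.4 to 28.2), though the intervals overlap. At the remaining members, no IDR summit lay within 500 bp of the nearest start site. Another IDR summit lay within 1000 bp of 94 members (23.8%, 19.7 to 28.3), compared with 55 far intronic summits (14.4%, 11.1 to 18.4). The position rule itself favours the members in this comparison. A summit within 500 bp of a start site can lie within 1000 bp of a member, but never of a far intronic summit. No share of eligible positions was counted for this measure. Whether members cluster more closely apart from the rule was not tested.

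**Figure D3:**
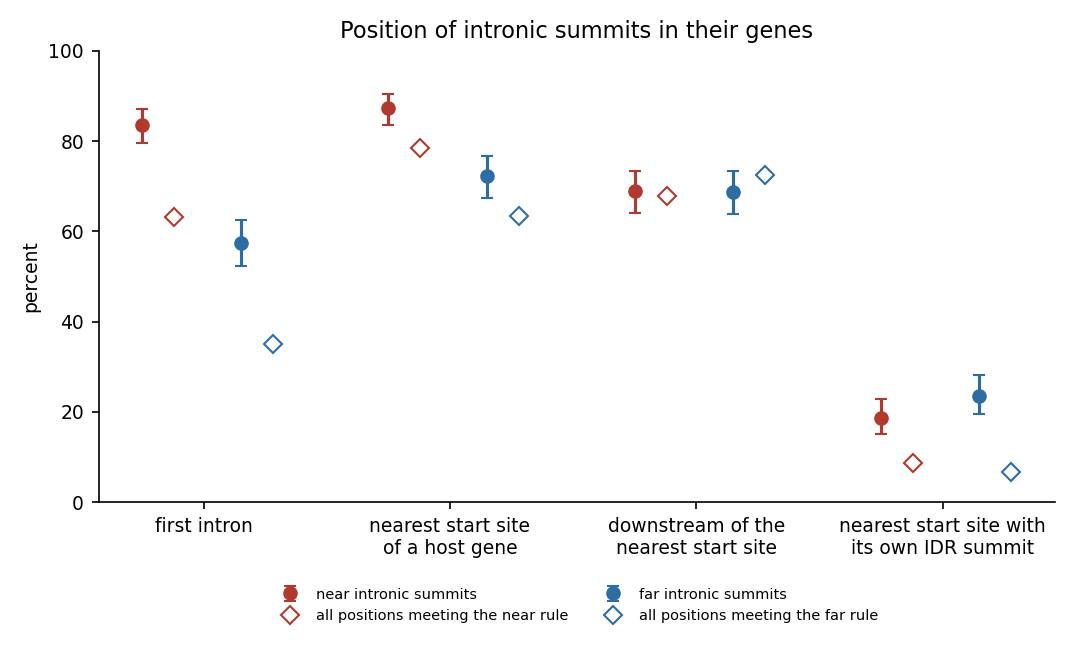
Percent (y axis) of near intronic (red circles, n = 395) and far intronic summits (blue circles, n = 381), with exact 95% binomial intervals, beside all genome positions that meet the same rule (open diamonds of the same colour), for 4 descriptions of position. First introns hold 83.5% of the near summits and 63.1% of the eligible positions, while the share downstream of the start site is 68.9% and 67.9%.

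The median member lay in an intron of 5722 bp and in a host gene of 17678 bp. For 127 members (32.2%) the intron was over 10000 bp, and for 79 (20%) it was at most 2000 bp. Members can share an intron. Where transcripts of the host gene differed, the shortest intron at the summit was taken. An exon came within the window of 100 bp to either side of 16 summits, 17 summits lay in more than 1 protein-coding gene, and 5 lay over a non-coding gene.

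Long introns also give more room for a summit, and counts of genes are given beside it. In all, 326 protein-coding genes held at least 1 member, which is 2.34% of the 13945 genes and 3.56% of the 9156 that have any sequence meeting the rule. The genes with a member had a median of 4936 bp of such sequence, and the others with any had 393 bp. With at most 1000 bp of it, 19 of 5884 genes (0.323%) held a member, and with over 10000 bp 64 of 275 (23.3%, 18.4 to 28.7). One member was found in 266 genes, a pair in 45, and 3 or more in 15.

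The genes with the most members were shn and Tlk. In shn, a zinc finger protein of Dpp signalling, 7 members spread over 22.2 kb, at pooled ranks 452 to 1996, beside 5 further IDR summits in the gene. The best of them ranked 375 in replicate 2 and 682 in replicate 3. Tlk, the Tousled-like kinase of chromatin assembly, held 6 members over 37.4 kb, and 9 IDR summits in all. Its best member (rank 380) ranked 351 in replicate 2 and 542 in replicate 3, and its summits at ranks 453 and 1843, 226 bp apart, share the replicate regions ranked 655 and 347.

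The forkhead gene CHES-1-like, the translational repressor brat, the GA-binding BTB protein gene psq and the corepressor gene sbb held 4 members each. CHES-1-like had the strongest of these, at rank 293 (442 in replicate 2 and 236 in replicate 3), and sbb had 14 IDR summits in all. Genes with 3 members were Egfr, Eip75B (an ecdysone-induced nuclear receptor), fz2 (a Wingless receptor), fru and lola (BTB transcription factors), jumu (a forkhead factor), bowl (a zinc finger factor), Svil (an actin-binding supervillin) and CG1677. The members in jumu stood within 0.813 kb and those in fz2 within 1.45 kb, both including a pair about 200 bp apart, whereas those in Eip75B spanned 90.8 kb. The 3 members in CG1677 each had the start site of another gene as the nearest: unc-119, CBP and brk. All members in sbb were likewise nearest to a start site of CG14502 or Tango8. So were the Egfr members at ranks 531 and 1138 to CG30283, and the Eip75B member at rank 2006 to CG32192.

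**Figure D4:**
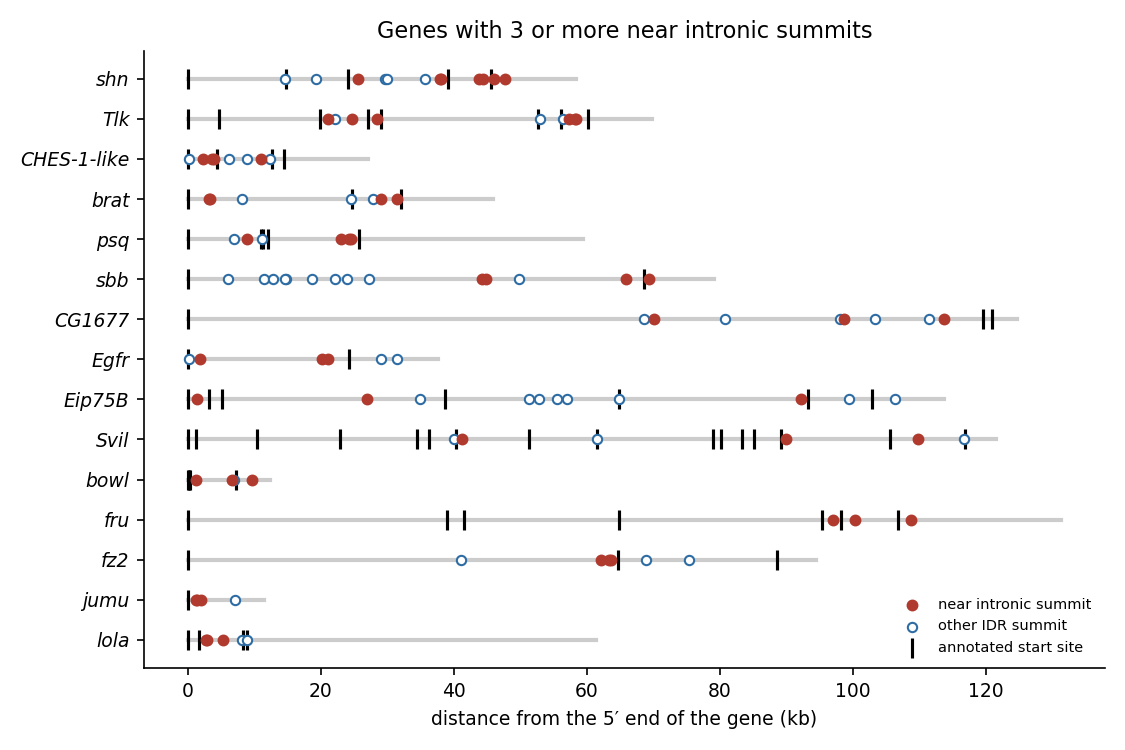
Positions along the 15 genes with 3 or more near intronic summits, in kb from the 5′ end of the gene (x axis), with near intronic summits (red), other IDR summits (open blue circles) and the gene's own annotated start sites (black ticks); start sites of other genes are not drawn. The members in shn extend over 22.2 kb and those in fz2 over 1.45 kb.

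Genes of known pathways were taken from lists chosen with earlier results of these data in view. Over 21 lists, 44 of 333 genes (13.2%) held a member, against 2.34% of all genes and 3.56% of those with eligible sequence. These 2 shares stand beside each list, but they do not allow for the amount of eligible sequence. Among all genes with such sequence, the share holding a member was 0.323% with at most 1000 bp and 4.78% with over 1000 to 2500 bp. It was 9.08% with over 2500 to 5000 bp, 16.7% with over 5000 to 10000 bp and 23.3% with over 10000 bp. The median of eligible sequence differed by list, from 0 bp for antimicrobial peptides to 12892 bp for neuronal RNA-binding proteins. Genes of 1 list can fall in different classes. The ecdysone response had 7 of 16 genes, with a median of 6927 bp of eligible sequence over the list. Its best-ranked members lay in Hr39, an orphan nuclear receptor (rank 522, with ranks 212 and 2659 in replicates 2 and 3), and tai, a coactivator of the ecdysone receptor (525, with 764 and 633). The Hr39 region was thus in the top 2133 of replicate 2 and not of replicate 3. Eip75B, Eip74EF, Hnf4, Hr4 and br held the rest. The best member in Eip75B and those in Hr4 and br were likewise outside the top 2133 of replicate 3 (ranks 3674, 2628 and 4328).

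Dpp and BMP signalling had 6 of 16 genes with a member, with a median of 1675 bp of eligible sequence over the list. The best were in wit, a type II BMP receptor (rank 450, with 606 in replicate 2 and 522 in replicate 3, 554 bp downstream of its start site), and in shn. Of the EGFR list, 4 of 15 genes had one: Egfr, the feedback inhibitor sty (rank 643, with 881 and 601 in replicates 2 and 3), and the ETS factors aop and pnt. The insulin and TOR list had 5 of 15, led by the lipid regulator SREBP (rank 1055, with 3324 and 412 in replicates 2 and 3) and the kinase Akt (1089, with 1528 and 787). The SREBP region was outside the top 2133 of replicate 2. The median eligible sequence of the insulin and TOR list was 803 bp.

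Among GATA factors and their cofactor 2 of 6 genes held a member, ush and GATAd (rank 419). The neuronal RNA-binding list had 3 of 13 (23.1%), with mub (rank 513) and Syp (713) first. Of all genes with over 10000 bp of eligible sequence, 23.3% held a member. Wnt signalling had 3 of 16, with the co-receptor arr at rank 612 and fz2 at 706. The Polycomb and trithorax list, with a median of 688.5 bp of eligible sequence, had 3 of 20. These were trx, the trithorax methyltransferase (rank 365, with 176 and 269 in replicates 2 and 3), ph-p (762, with 890 and 733) and Trl, which encodes the GAGA factor (784, with 344 and 722). The clock list had 2 of 9 (cwo at rank 1250 and vri at 1703) and the JNK list 2 of 17 (puc, the JNK phosphatase, at 892 and kay, the fly Fos, at 1857). Single genes came from JAK-STAT (Stat92E, the STAT factor, rank 810), Notch (the coactivator mam, 343), fat body lipid metabolism (SREBP), autophagy (the kinase Atg1, 1036), adhesion and guidance (kirre, 711) and homeodomain regulators (nub, 2002). A gene was counted when a member lay inside it, even if the nearest start site belonged to another gene. This was so for every member in puc, arr, kirre, Atg1, ush, tkv and sbb, with tkv and sbb both counted in the Dpp and BMP list. It was also so for the best member of Syp and for lower-ranked members of mam, Egfr and Eip75B.

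On the Imd and Toll lists, only Tab2, eff and Pli held members. Of 28 genes of the Imd pathway, 2 (7.14%) held members, against 2.34% of all genes and 13.2% of the genes on all 21 lists. The median over the Imd list was 500 bp of eligible sequence. Tab2, the adaptor of the kinase Tak1, had one at rank 611 (787 in replicate 2 and 731 in replicate 3), 1224 bp downstream of its start site, and eff, the ubiquitin-conjugating enzyme Ubc5, had a pair at ranks 946 and 1539. Of 19 genes of the Toll pathway, 1 did: Pli, a Pelle-interacting ubiquitin ligase, at ranks 463 and 629. No member lay in any of 14 antimicrobial peptide genes, and none of these has intron sequence that meets the rule. The Hippo list (13 genes) and the Hox list (11 genes) held no member either, with a median of 986 and 2088 bp of eligible sequence.

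The GA repeat was more frequent at the summits than in all eligible sequence. The rule for members did not use it, but the string was chosen with earlier results of these data known. GAGAGAG is known as a string of GAGA factor and of the protein CLAMP. It was present on either strand within 100 bp of 40 of the 395 summits (10.1%, 7.33 to 13.5). All windows of the same 201 bp length, laid end to end along the genome with their centre at an eligible position (72163 windows), held it in 3.01%. Far intronic summits had it in 29 of 381 cases (7.61%, 5.16 to 10.7), against 2.62% of all windows at far positions. Among regions within 500 bp of a start site, after the first 200 ranks, it was found in 119 of 653 (18.2%) at promoters with start sites in 1 direction and in 2 of 140 (1.43%) at promoters with start sites in both.

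GAGAGAG was present at 19 of 142 members (13.4%, 8.25 to 20.1) 501 to 1000 bp from a start site, against 3.66% of windows at that distance. Beyond 1500 bp it was at 11 of 161 (6.83%, 3.46 to 11.9), against 2.67%. Each of these shares lies outside the interval of the other, while the intervals overlap, and the difference was not tested. Down to the middle of the IDR list 20 of 179 members (11.2%) had the string, and below it 20 of 216 (9.26%). Members found in the top regions of both replicates had it in 23 of 225 cases (10.2%), and the others in 17 of 170 (10%). On the X chromosome it was in 8 of 79 (10.1%), and on the autosomes in 32 of 316 (10.1%). The longest uninterrupted GA run, 25 bases, was in crol (rank 638), a gene named here after its value was seen. On the strand of the host gene, the GA string was antisense only in 26 of the 40 members (65.0%, 48.3 to 79.4), against 56.6% of the eligible windows that hold it, and sense only in 11, an orientation also looked at after the strings were counted.

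In bins of 50 bp along the plus strand of the chromosome, the GA strings were in 8 of 395 members (2.03%, 0.878 to 3.95) just before the summit, in 13 (3.29%, 1.76 to 5.56) just after it, and in 20 (5.06%, 3.12 to 7.71) 100 to 150 bp before it. These intervals overlap. Widening the window to 200 bp on each side gave 87 members with the string (22.03%, 18.03 to 26.4), against 5.72% of windows of that length, and narrowing it to 50 bp gave 19 (4.81%, 2.92 to 7.41), against 1.55%.

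CACACACA, a simple repeat, was within 100 bp of 42 summits (10.6%, 7.77 to 14.1), against 4.97% of all eligible windows and 34 far intronic summits (8.92%, 6.26 to 12.2). With replicate 2 left out, the list from replicate 3 had it at 26 of 370 summits (7.03%, 4.64 to 10.1), and this interval holds the 4.97% of windows. In bins of 50 bp, CACACACA was in 10 members (2.53%, 1.22 to 4.61) just before the summit and 12 (3.04%, 1.58 to 5.25) just after it. It was in 22 (5.57%, 3.52 to 8.31) 100 to 150 bp before and 25 (6.33%, 4.14 to 9.20) 200 to 250 bp after. The string was thus not most frequent at the summit itself, though these intervals overlap. One or both repeats were present at 74 members (18.7%, 15.01 to 22.9), against 7.66% of windows, and 8 members had both, among them Tlk, whose sequence is shown above. Runs of AAAAAAAA were also common, at 86 members (21.8%), against 25.2% of far intronic summits and 13.1% of windows. The windows of the members had a median GC content of 37.8%, against 39.8% over all eligible windows; the part of base composition in these shares was not tested.

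Matches to kB sequences were few. The broad kB consensus was within 100 bp of 4 summits (1.01%, 0.277 to 2.57), those in Svil (rank 443), CG9328 (456), Girdin (767) and eff (1539), against 1.60% of all eligible windows. A shorter kB string, GGGANTCNC, was at 3 (0.759%, 0.157 to 2.20), those in Syp, Akt and Rubicon, against 0.982% of windows. Far intronic summits had the broad consensus in 2 cases (0.525%). Neither share differed from that of the windows by more than its interval at this window length. With 200 bp on each side, the broad consensus was at 6 members (1.52%, 0.559 to 3.28). The windows of that length had it in 3.41%, which is above the interval. With 50 bp it was at 2 members (0.506%, 0.0614 to 1.82), against 0.777%. No match says only that these letters are not within the window.

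**Figure D5:**
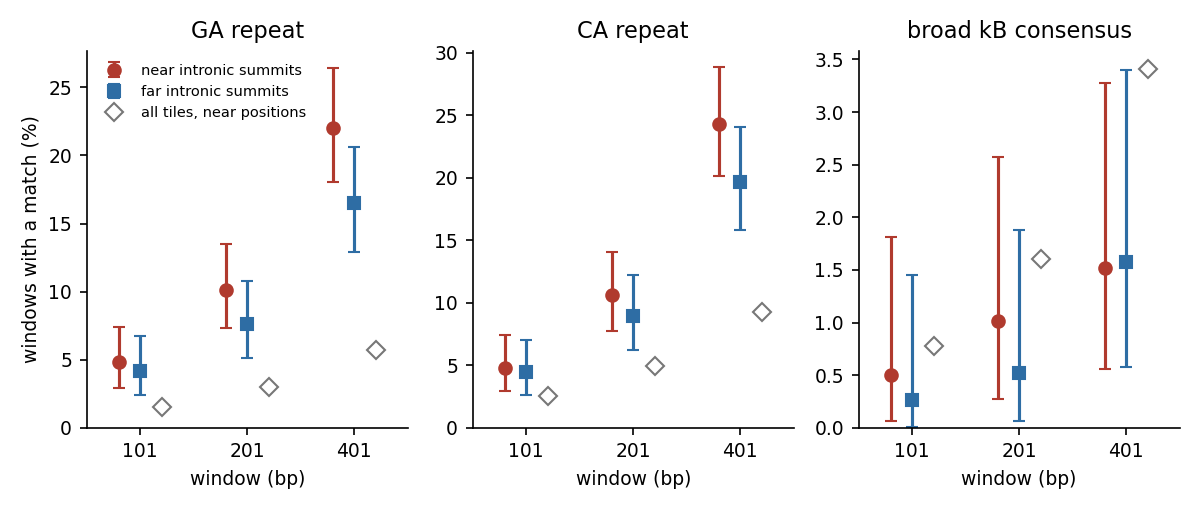
Percent of windows with at least 1 match on either strand (y axis, each panel with its own scale) for windows of 101, 201 and 401 bp (x axis), at near intronic summits (red circles), far intronic summits (blue squares) and all windows at eligible near positions (open diamonds); bars are exact 95% binomial intervals. At 201 bp the GA repeat is at 10.1% of near summits and 3.01% of windows, and the broad kB consensus at 1.01% and 1.60%.

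In all, 16 strings were searched. Of the strings of other factors, 2 were above their share in all windows by more than the interval. The E-box CAGCTG was at 43 members (10.9%, 7.99 to 14.4), against 6.56% of far intronic summits and 7.70% of windows. It was at 9.33% (5.87 to 13.9) of members in the top regions of both replicates and 12.9% of the others. Down to the middle of the list the CAGCTG share was 8.94% (5.20 to 14.1), and below it 12.5%. The intervals for members in both replicates and for the upper ranks hold the 7.70% of windows. TGTTTAC, bound by forkhead factors, was at 31 (7.85%, 5.39 to 11.0), against 4.72% and 5.14%. AGGTCA, a nuclear receptor half-site, was at 17 (4.30%), against 5.45% of windows. The share was 5.82% for the STAT string TTCNNNGAA, against 6.49% of windows, 5.06% for the AP-1 string TGANTCA, against 5.51%, and 3.04% for the GATA string AGATAAG, against 3.02%. Among all 6-base strings, named here after their values were seen, the ratio to the windows was 3.06 for GAGAGC, at 21.8% of members, 13.9% of far intronic summits and 7.12% of windows. Among strings less frequent at the members, GGGAAA was at 9.37% of members and 17.2% of windows, and CCATCA at 2.78% and 8.72%. No test was made over these strings.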

How the data were processed

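ChIP-seq of GFP-tagged Rel was measured in 2 replicates of 1 group, with chromatin sonicated to 200 to 800 bp per the labels. The deposited files are peak lists on dm6: relaxed lists of 30000 regions, 1 per replicate and 1 from pooled reads, and the list that passed the irreproducible discovery rate (IDR) procedure. The deposited signal value of a region is relative to the authors' control and was used only for ranking within a list. The authors' −log10 q value was used for description and to define regions below the list. For aligner and peak caller, names and settings were not given in the sources used here. Read counts are not part of the lists, and library depth is therefore unknown.

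Summits were placed on Ensembl release 115 (BDGP6.54) genes and the RefSeq dm6 sequence, with coordinates counted from 1. Every eligible position, and every end-to-end window centred on one, was counted as background. The members, gene lists and strings were chosen with earlier results of these data known, so no test was made. Shares carry exact Clopper-Pearson 95% intervals and densities exact Poisson ones. Named genes are the hosts of the 15 highest-ranked members, every host of 3 or more, and the 2 best-ranked hosts of each list. Genes at the limits of the rule, with kB matches or the longest GA run, owners of a nearest start site, and further hosts of a list, were named after their values were seen. One gene that this rule takes is not reported here, nor is its sequence. In the lists, 4 symbols found no match. Python 3.11.15, numpy 2.4.6, scipy 1.17.1 and matplotlib 3.10.9 were used. Placement and counting were tested on simulated data with known answers.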

Additional observations from a re-analysis of the deposited data

Results flagged for a closer look

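The pooled list continues below the 2133 regions of the IDR list, and 2103 further regions have an authors' q value under 0.05. Of these, 417 (19.8%, exact 95% interval 18.1 to 21.6) met the same position rule; they were outside the main measurement. GAGAGAG was within 100 bp of 39 of the 417 (9.35%, 6.74 to 12.6) and CACACACA of 35 (8.39%), against 3.01% and 4.97% of all eligible windows. The broad kB consensus was at 4 (0.959%). Among pooled regions ranked after 20000, 1533 of 10000 met the position rule (15.3%), and 40 of these (2.61%, 1.87 to 3.54) held GAGAGAG.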

How the results depend on the processing

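Of 81 recalculations over 8 results, 70 stayed within the counting interval of the value reported (counts of members within 1.5 times) and 11 did not. Ranks down to the middle of the list left 179 members, and start sites over 1000 bp away 253. With start sites of all genes, the nearest start site was the host's own for 79.0%. Windows of 50 bp either side gave 4.81% for GAGAGAG and 4.81% for CACACACA, and windows of 200 bp 22.03% and 24.3%, since longer windows hold more strings. Both replicates had the region in 47.1% by summits within 100 bp, 26.1% with the top 1066 regions and 89.9% with the top 4266. Using 1 replicate's own top 2133 regions by the same rule gave 370 members (without replicate 2) and 403 (without replicate 3), of which 248 (67.03%) and 290 (72.0%) had a member summit within 100 bp. The share with CACACACA was 7.03% to 10.9% between these lists, that with GAGAGAG 8.92% to 11.4%, that in a first intron 83.2% to 85.1%, with the start site of the host gene 87.0% to 90.3% and with a bound start site 18.4% to 20.3%; without replicate 2 the interval of the CACACACA share holds the 4.97% of eligible windows, and the cause was not tested. Added after the data were seen, leaving out members that overlap a higher-ranked region, keeping 1 member for each of 313 host genes, or using exons of protein-coding genes only (407 members) kept each of these shares within its interval. No paired analysis was possible because the samples form 1 group. Unknown depth limits any statement on regions absent from a replicate.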
